A study of Mus musculus with 36 samples.

Results

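Round spermatids are the haploid cells that testicular germ cells become after meiosis, before their nuclei condense and their tails grow. The data described here are the 6 round spermatid libraries among the 36 samples of the series, taken as 1 group because they are the 6 count columns of the spermatid table. The cells came from wildtype male mice, C57BL/6 in the labels and C57BL/6N in the methods, that were 8 weeks old and had been fed for 2 weeks on a high-fat diet (HFD, 60% of kcal from fat) or a low-fat diet (LFD, 10% of kcal from fat). The labels put 3 samples on each diet, but the name of a count column does not show which, so the diet of a library is not known and no comparison of diets was made. The libraries are therefore called A to F, in the order of the numbers in their column names, and any effect of diet lies within the spread between them. The methods give 3 mice per diet for the spermatid RNA, as many as the samples of a diet. The cells were isolated from testis on a density gradient, and total RNA was depleted of rRNA before library construction, so that RNAs without a poly(A) tail were kept.

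Spermatids carry out transcription in a short window before their chromatin is closed. In that window they make the transition proteins and protamines that replace histones, the enzymes and membrane proteins of the acrosome, the scaffold of the tail, and germ cell forms of the glycolytic enzymes, and much of this mRNA is stored and translated days later. The testis also holds spermatocytes, spermatogonia, Sertoli cells that nurse the germ cells, and Leydig, myoid, vascular and blood cells, any of which can be carried along in a preparation.

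The libraries held between 20138842 (B) and 31056066 (D) counts on the 51912 annotated genes, and 29324 genes had a count in every library. Every pair of libraries differed by more than sampling noise, with a chi-square over genes of 3.50 to 12.6 times its degrees of freedom. Pearson's r between the log2 values of libraries lay between 0.992 and 0.997 across 12285 genes, which share libraries and depth and are not independent replicates.

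Prm1 and Tnp1, which encode a protamine and a transition protein, and Acrv1, which encodes a protein of the acrosomal matrix, were taken as the markers of the cell type. Promoter sequences are shown for these 3 genes because they carry the identity of the cells, from 250 to 51 bases before the RefSeq gene start (GRCm38.p6), 5′ to 3′, with matches to TGANNTCA in capitals. TGANNTCA is a loose form of TGACGTCA, the site known for cAMP-responsive factors such as the spermatid activator CREM, it reads the same way on both strands, and it was chosen after the sequences had been seen. The Prm1 stretch is chr16:10796874-10797073 on the minus strand, of which the last 13 bases lie inside the gene as the count table annotates it. The Tnp1 stretch is chr1:73015950-73016149 on the minus strand and the Acrv1 stretch is chr9:36692970-36693169 on the plus strand.
Prm1: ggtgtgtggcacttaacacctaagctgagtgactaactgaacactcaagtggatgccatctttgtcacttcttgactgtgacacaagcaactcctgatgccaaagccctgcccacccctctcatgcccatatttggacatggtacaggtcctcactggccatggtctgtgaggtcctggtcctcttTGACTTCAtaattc
Tnp1: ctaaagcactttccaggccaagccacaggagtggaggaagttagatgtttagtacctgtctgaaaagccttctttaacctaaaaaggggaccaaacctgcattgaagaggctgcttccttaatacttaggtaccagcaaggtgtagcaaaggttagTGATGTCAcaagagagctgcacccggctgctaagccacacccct
Acrv1: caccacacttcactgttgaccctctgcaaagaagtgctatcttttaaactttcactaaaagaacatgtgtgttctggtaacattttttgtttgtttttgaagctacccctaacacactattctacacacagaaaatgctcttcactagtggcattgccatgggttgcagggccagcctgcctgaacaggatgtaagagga

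The match in Prm1 began 64 bases and that in Tnp1 94 bases before the gene start, and Acrv1 had none. In windows of 300 bases, from 250 before to 50 after the start, the loose motif stood at 4304 of 27025 genes (15.9%) and the full TGACGTCA at 549 (2.03%). Of the 20 most abundant nuclear genes described next, 16 had such a window, 4 of them (Prm1, Smcp, Tnp1 and Meig1) held the loose motif and 0 held the full one. Prm1 and Tnp1 are among the sequences seen before the motif was chosen, so their matches lend it no support. Among the acrosome and egg fusion genes, 9 of 23 windows held the loose motif and 1, that of the egg fusion receptor gene Izumo1, held the full one. The loose motif stood in 4 of 8 windows of chromatin condensation genes, Prm1 and Tnp1 included. It stood in 6 of 24 tail and sheath, 3 of 12 metabolic, 2 of 14 spermatogonial and 0 of 10 Sertoli windows. A match is a run of letters and not a measured site.

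All 3 markers were found in every library, Acrv1 at a much lower level than Prm1 and Tnp1. Levels between genes are given in TPM, the counts per base of gene length relative to their sum over all genes of the library. Prm1 stood at 7733, 8734, 8902, 7980, 8251 and 10584 TPM in libraries A to F. Tnp1 stood at 2076, 2604, 2434, 1929, 2164 and 2818 TPM. Acrv1 stood at 163, 170, 154, 137, 138 and 160 TPM. Library F was the highest for Prm1 and Tnp1, and no library was without a marker.

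The 20 most abundant nuclear genes of at least 200 bases took up 10.4% ± 0.77 (SD, n = 6) of all TPM and 4.28% of the counts. The first of them was Rn7sk, the small nuclear RNA that holds back the elongation factor P-TEFb, at 33672 ± 2719 TPM (SD, n = 6). Rpph1, the RNA of ribonuclease P, stood at 5579 ± 888 TPM. Neither RNA is polyadenylated. Gm26917, annotated as a long noncoding RNA on chr17:39843013-39846341, stood at 10059 ± 2608 TPM and was the gene with the most counts in the table, a mean of 343715 a library. It lies directly next to an annotated rRNA gene, CT010467.1, and whether its counts are reads of rRNA origin was not tested.

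Genes of chromatin condensation came next. Prm2, the other main protamine, stood at 8638 ± 737 TPM, level with Prm1 at 8697 ± 1024 TPM, a difference smaller than the spread of either between libraries. Tnp2, the other transition protein, stood at 5768 ± 642 TPM. Prm1, Prm2 and Tnp2 lie side by side on chr16:10787936-10796886, together with Prm3 at 563 ± 65.1 TPM. H1fnt, the spermatid form of the linker histone H1, stood at 597 ± 43.4 TPM, H2al2a, a histone variant of condensing sperm chromatin, at 280 ± 34.9 TPM, and Brdt, the bromodomain protein that binds acetylated histones, at 160 ± 13.8 TPM. All 10 of the 11 listed genes that could be matched exceeded 10 TPM.

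Tail and energy genes were also among the 20. Smcp, a protein of the mitochondrial capsule around the midpiece, stood at 2916 ± 232 TPM, Ropn1l, a sheath protein, at 2161 ± 122 TPM, and Odf1, a component of the outer dense fibres, at 2130 ± 181 TPM. Ldhc, the germ cell lactate dehydrogenase, stood at 3885 ± 375 TPM, the highest of 17 listed metabolic genes. Gapdhs, the glyceraldehyde-3-phosphate dehydrogenase of sperm, followed in that list at 1638 ± 128 TPM, below the last of the 20. Ybx2, which binds and stores spermatid mRNA, stood at 2029 ± 83.8 TPM, and Phf7, a histone ubiquitin ligase of spermatids, at 2391 ± 206 TPM. Tcp11, Crisp2, Dbil5, Gstm5, Gm5617, Smim24 and Meig1 completed the 20, between 1721 TPM (Meig1) and 2257 TPM (Tcp11).

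**Figure D1:**
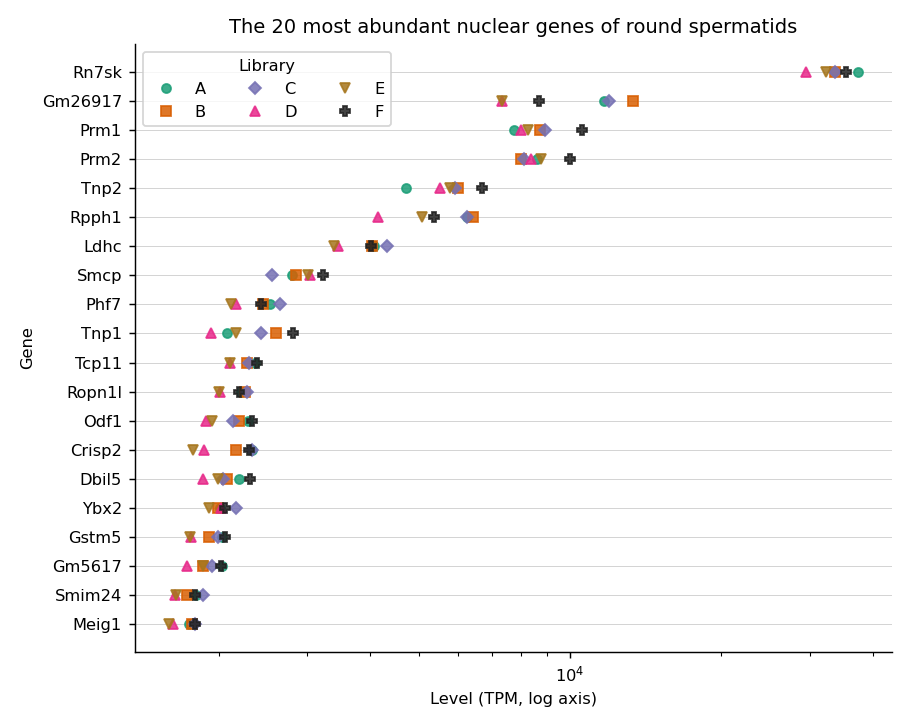
The 20 most abundant nuclear genes (rows) with their level in each of the 6 libraries (TPM, log axis, 1 symbol a library). Rn7sk lies apart at 29440 to 37417 TPM, and Gm26917 runs over the widest range for its level, from 7322 to 13349 TPM.

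TPM depends on gene length, which weighs on very short genes. Gm23935, a gene of 57 bases on chr16:11144125-11144181, was left out of this ranking by its length, yet it alone took 8.28% (C) to 23.0% (E) of a library's TPM. TPM of all other genes are lowered accordingly in libraries D and E, where Gm23935 took 21.03% and 23.0%. Differences between libraries are therefore given from here on in scaled CPM, the counts relative to library sizes adjusted with TMM (trimmed mean of M values).

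Acrosome and egg fusion genes were present as a set, 24 of 26 having been matched, all above 1 TPM and 23 above 10 TPM. Spink2, a protease inhibitor of the acrosome, was the highest at 741 ± 36.5 TPM, and Acr, the protease acrosin, stood at 361 ± 16.9 TPM. Izumo1, which meets the egg receptor, stood at 82.5 ± 11.7 TPM. The gene of the lowest level was Gopc, a Golgi protein of acrosome assembly, at 5.78 ± 0.806 TPM. In the list of tail and sheath genes all 26 exceeded 10 TPM, with Tcte3, a dynein light chain, the lowest at 27.2 ± 5.36 TPM.

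Regulators of spermatid genes were also present, 18 of 19 above 10 TPM. Crem itself stood at 99.1 ± 8.19 TPM, Tbpl1, the testis relative of the TATA-binding protein, at 250.9 ± 28.2 TPM, and Rfx2, a factor of ciliary and spermatid genes, at 390 ± 19.02 TPM. Piwil1, the protein that carries piRNAs, stood at 167 ± 22.4 TPM. The exception was Eif4e1b, an egg form of the cap-binding protein, at 0.0762 ± 0.0656 TPM.

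Counts on the 37 genes of mitochondrial DNA (mtDNA) were a small share of each library. The share was 2.23%, 2.04%, 1.99%, 2.38%, 2.25% and 1.96% in libraries A to F, a mean of 2.14% ± 0.170 (SD, n = 6). Library D was the highest and library F the lowest, and their shares lay within 1.22 times of each other. In the 6 cauda spermatozoa libraries, made with the same kit from stored epididymal sperm but read single-ended, the share was 68.8% ± 14.95 (43.5% to 84.3%). In the 6 morula libraries, from embryos before the blastocyst stage and read in pairs, it was 25.1% ± 1.56 (22.8% to 26.9%).

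The spermatid share was 66.7 percentage points below that of cauda spermatozoa and 23.0 below that of morulae, and neither pair of groups overlapped. Both differences had p = 0.00216 in a two-sided, exact permutation test (924 ways to divide the libraries), the smallest p that 6 libraries against 6 allow. Both diets are in every group. Cell type, rRNA depletion, read layout (for cauda spermatozoa) and the table's annotation release cannot be told apart in these comparisons. The methods state rRNA depletion for the spermatid RNA only, and most mtDNA counts fall on rRNA genes. A lower share of mtDNA counts can come from fewer mtDNA transcripts or from more nuclear RNA a cell, and counts of bulk libraries do not separate these.

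**Figure D2:**
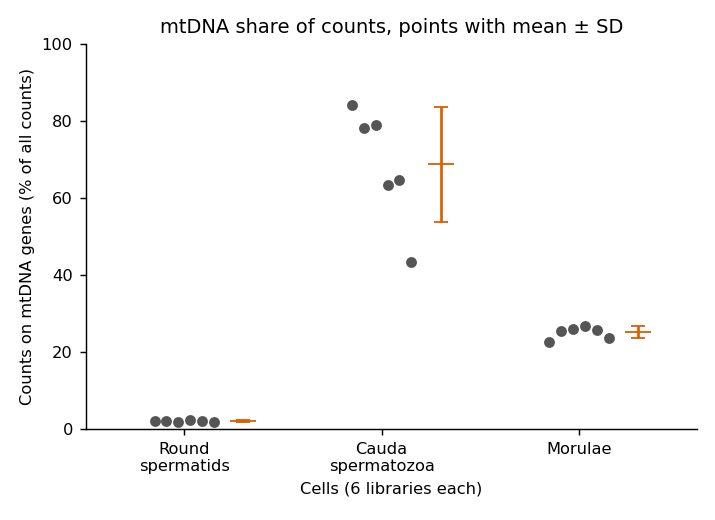
Share of counts on the 37 mtDNA genes (vertical axis, % of all counts) in 6 libraries each of round spermatids, cauda spermatozoa and morulae, with the mean and SD beside the points. The spermatid points lie between 1.96% and 2.38%, below every point of the other groups.

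The mitochondrial ribosomal RNAs made up most of these counts, although rRNA had been depleted. mt-Rnr1 (12S) and mt-Rnr2 (16S) held 82.9%, 82.8%, 81.1%, 85.5%, 86.2% and 84.0% of the mtDNA counts in libraries A to F. Their share was 93.2% ± 0.421 in cauda spermatozoa and 74.0% ± 1.30 in morulae, values given as a description without a test. Without both rRNAs the mtDNA share of spermatids was 0.352%.

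mt-Rnr1 was not even between libraries. It stood at 5687, 5348, 4956, 8204, 7873 and 5613 scaled CPM in A to F, so that D and E exceeded the other libraries, which lay between 4956 and 5687. mt-Rnr2, read from the same precursor, stood at 12590, 11088, 10829, 12510, 12188 and 11019, and there library A was the highest. The 13 protein-coding genes held 16.2% ± 1.88 of the mtDNA counts and the 22 tRNA genes 0.0441% ± 0.00779.

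Among the protein-coding genes mt-Co1, a core subunit of cytochrome c oxidase, was the highest at 2489 ± 384 TPM, followed by mt-Nd1 of complex I at 1139 ± 188 TPM and mt-Cytb of complex III at 901 ± 152 TPM. Levels fell into 2 ranges. mt-Nd1, mt-Nd2, mt-Nd4, mt-Nd5, mt-Nd6, mt-Cytb and mt-Co1 stood at 339 to 2489 TPM. mt-Co2, mt-Co3, mt-Atp6, mt-Nd3 and mt-Nd4l stood at 13.0 to 35.2 TPM. Each of these 5 has a copy on chromosome 1 of at least 99% identity over at least 90% of its length among annotated nuclear transcripts, for example Gm28661 for mt-Co2 (100% identity), and the other 7 have none. mt-Co2 had a mean of 252.5 counts and Gm28661 194.2. Reads that match 2 places equally well may be set aside in counting, so the levels of these 5 genes are uncertain. mt-Atp8 stood at 33.0 TPM and had no such copy among annotated transcripts. It overlaps mt-Atp6, which has one, so its level is uncertain too.

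The mt-tRNA genes were near the limit of what was counted. 11 of the 22 had a count in every library, and 0 reached a mean of 100 counts. mt-Tp (proline), at a mean of 74.0 counts, and mt-Tc (cysteine), at 52.3, were the highest. mt-Td and mt-Tk had 0 counts in all 6 libraries, which allows up to 0.0966 (D) to 0.149 (B) CPM, 3 counts of a library's total and counting error only. Both lie next to mt-Co2, which has a near-identical nuclear copy, and this limit does not cover reads set aside in counting. Fragments shorter than the kit keeps are not seen, so these values do not measure mature tRNA.

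Markers of other cell types were compared next with those of spermatids, by the summed TPM of each list. The spermatid markers summed to 11188 ± 1343 TPM and the chromatin condensation genes to 27574 ± 2601 TPM (SD, n = 6). Genes of the meiotic prophase summed to 1827 ± 164 TPM, with all 26 above 1 TPM and 16 above 10 TPM. Syce1 of the synaptonemal complex was the highest at 493 ± 21.2 TPM, and Sycp1 and Sycp3 stood at 92.2 ± 16.7 and 53.8 ± 10.4 TPM. Dmc1, the recombinase of early prophase, stood at 4.91 ± 1.40 TPM, and Prdm9, which places recombination, at 1.27 ± 0.561 TPM. Late spermatocyte genes summed to 2341 ± 156 TPM, of which Hspa2, a chaperone of meiotic cells, made 1402 ± 76.5 TPM. Spermatids inherit RNA from spermatocytes, so inherited RNA and spermatocytes in the preparation cannot be told apart.

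Spermatogonial and somatic lists were lower. The 18 spermatogonial genes summed to 85.9 ± 19.8 TPM, with Id4 the highest at 18.6 ± 3.00 TPM, while the defining genes Zbtb16 and Kit stood at 2.28 ± 0.702 and 3.37 ± 0.955 TPM and Stra8 at 3.74 ± 1.48 TPM. The 18 Sertoli genes summed to 152 ± 44.4 TPM, with Clu, a secreted chaperone, at 37.6 ± 13.7 TPM and the defining factors Sox9 and Wt1 at 1.30 ± 0.320 and 1.74 ± 0.393 TPM. The 11 Leydig genes summed to 54.0 ± 5.00 TPM, with Insl3, their peptide hormone, at 18.4 ± 3.56 TPM and Star, which feeds cholesterol to steroid synthesis, at 3.57 ± 0.532 TPM. No list member was at 0 in all 6 libraries.

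The myoid and stroma list summed to 289 ± 25.5 TPM, but 268 TPM of this was Actg2, an enteric smooth muscle actin. Without it the other 11 genes came to 21.4 TPM, and the defining genes Acta2 and Myh11 stood at 2.87 ± 0.431 and 0.959 ± 0.189 TPM. Endothelial genes summed to 9.65 ± 1.15 TPM, with Pecam1 at 0.262 ± 0.0870 and Cdh5 at 0.870 ± 0.125 TPM. Leukocyte genes summed to 39.1 ± 11.3 TPM, with C1qb, a complement gene of macrophages, at 9.77 ± 2.87 TPM and the common leukocyte antigen Ptprc at 0.152 ± 0.0478 TPM. Erythroid genes summed to 4.39 ± 0.593 TPM, and the globin genes Hba-a1 and Hbb-bs stood at 0.721 ± 0.288 and 1.11 ± 0.391 TPM. Genes of the epididymal epithelium, which lies outside the testis, summed to 15.7 ± 1.5001 TPM, and its defining genes Lcn5 and Crisp1 at 0.0658 and 0.416 TPM were near 0.

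**Figure D3:**
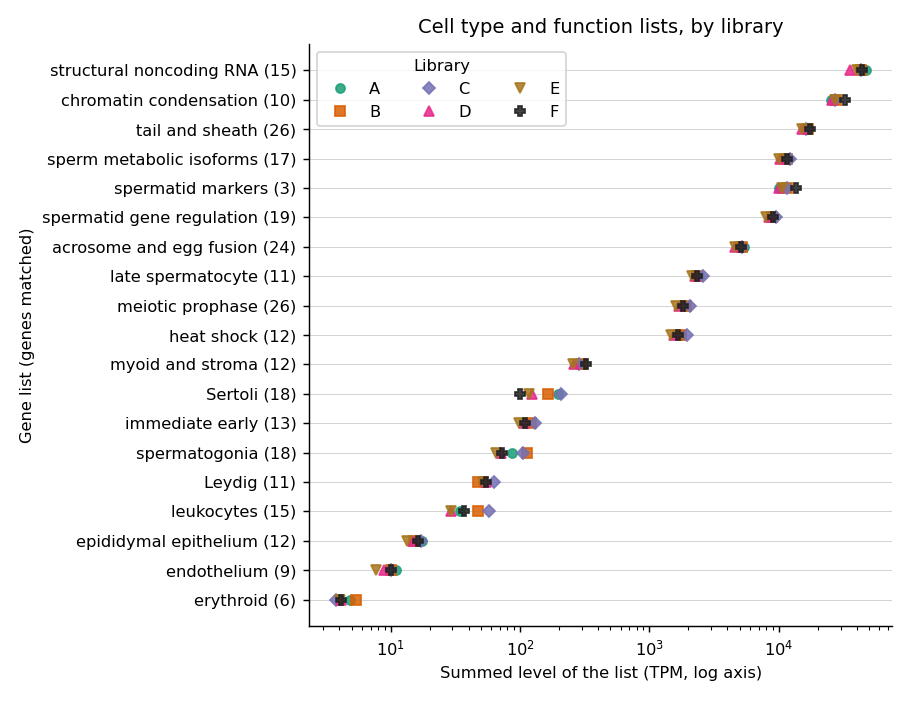
Summed level of 19 gene lists (rows, number of genes matched in brackets) in each library (TPM, log axis, 1 symbol a library). Spermatid lists lie at 4561 TPM or above, meiotic lists between 1608 and 2598 TPM, and spermatogonial and somatic lists at 325 TPM or below. The Sertoli symbols spread from 99.9 to 208 TPM, on a scale that Gm23935 lowers in libraries D and E.

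Each list was set against the same genes in the 6 cauda spermatozoa libraries, as summed CPM over genes held by both tables. Acrosome genes were 54.3-fold higher in spermatids (3800 ± 107 against 73.7 ± 26.0 CPM) and spermatid regulators 28.6-fold higher (10703 ± 249 against 393 ± 139). Late spermatocyte genes were 64.6-fold higher (2474 ± 66.4 against 46.9 ± 30.3) and the 3 spermatid markers 14.1-fold higher (2409 ± 272 against 180 ± 66.7). Folds are ratios of geometric means, 2 to the power of the difference of mean log2 values. Each of these differences had an adjusted p = 0.00257 (exact permutation test, two-sided, Benjamini-Hochberg over 19 lists), and the groups did not overlap. Because mtDNA genes fill most of a cauda spermatozoa library, these folds depend on the denominator. With nuclear counts only they were 15.8 for acrosome genes, 8.32 for regulators, 18.8 for late spermatocyte genes and 4.08 for the markers, each with an adjusted p = 0.00294 in the exact test.

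Lists of the epididymis and blood lay the other way. The epididymal genes stood at 13.0 ± 0.793 CPM in spermatids and 7497 ± 9602 in cauda spermatozoa, 339-fold lower in spermatids, the erythroid genes were 44.3-fold lower (2.90 ± 0.498 against 151 ± 78.1) and the leukocyte genes 3.60-fold lower (35.6 ± 6.74 against 129 ± 26.2), each with an adjusted p = 0.00257 in the same exact test. With nuclear counts only they were 1166-fold, 152.6-fold and 12.4-fold lower, each with an adjusted p = 0.00294 in the exact test. Tail and sheath genes were the closest of the spermatid lists, 2.19-fold higher in spermatids (15734 ± 660 against 7554 ± 2594) with the same adjusted p = 0.00257 of the exact test. With nuclear counts only, this list turned to lower in spermatids, by 0.65 on the log2 scale with an adjusted p = 0.229 in the exact test. Sertoli genes were 2.03-fold lower in spermatids with an adjusted p = 0.206 in the exact test, and 1 of the cauda spermatozoa libraries reached 1942 CPM.

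Spread between the spermatid libraries was small for most genes. It was measured by the biological coefficient of variation (BCV), the SD over libraries relative to the mean after the part expected from counting alone is removed, over 12285 genes with a mean count of at least 100. The common BCV from edgeR was 0.0802, the median of the single genes was 0.0612, and 95% of genes lay below 0.152. For 1188 genes (9.67%) the spread did not exceed counting error. Among these the genes of most counts were Ccnyl1, Sh3gl3, AW554918, Nupl1, Pmpcb, Icmt, Samd8, Pfn2, Pttg1ip and Spast, whose highest library was at most 1.05 times the lowest.

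The metabolic genes had a median BCV of 0.0681, and Ldhc, the most abundant of them, had 0.0299. The acrosome list had a median of 0.0663 and meiotic prophase 0.0705, both above the 0.0612 of all genes, while the regulators had 0.0517. Chromatin condensation had 0.138, spermatogonia 0.195 (7 genes with enough counts of 18) and Sertoli genes 0.2002 (9 of 18). Genes of low counts have a less certain BCV, and the lists differ in level.

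**Figure D4:**
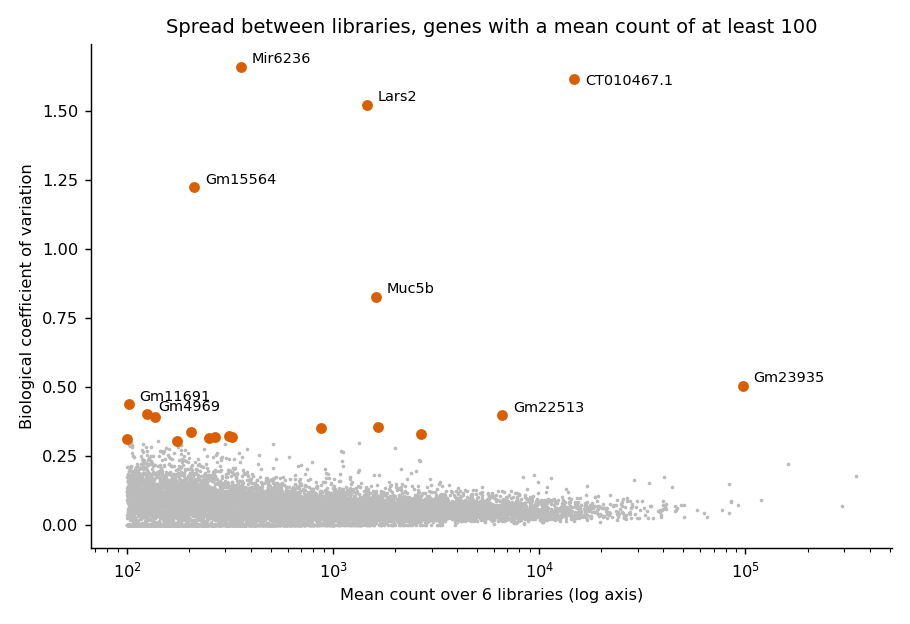
BCV (vertical axis) against mean count (log axis) for 12285 genes, with the 20 genes of highest BCV in orange and the first 9 of them named. Most genes lie below 0.152 at every level, and 6 genes lie above 0.5.

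Of the 12285 genes, 61 differed more than 2-fold between the highest and the lowest library, which is 0.497% of those tested. More than 1.5-fold was reached by 934 genes, 7.60%. Of the 61, 47 are protein-coding and 5 are small nuclear RNAs, and the shares of these types over all tested genes were not computed. Library F was the lowest for 25 of the 61 and library B the highest for 21. Over all 12285 genes, F was the lowest for 16.0% and B the highest for 17.0%. Members of the fixed lists among the 61 were Clu, Ctsl and Cldn11 (Sertoli), Sparc (stroma), Insl3 (Leydig), Dmrt1 (spermatogonia) and Rmrp (noncoding), and none of the spermatid or meiotic lists held one. At a share of 0.497%, lists of this size would hold few or none.

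The 4 most variable genes were high in libraries D and E together. CT010467.1 is annotated as an rRNA gene on chr17:39846353-39848827, minus strand, directly next to Gm26917. It stood at 32.6, 17.0, 14.8, 1986, 964 and 22.6 scaled CPM in libraries A to F (BCV 1.61). Libraries D and E lay 29.6 times or more above every other library. Its counts made 0.195% of those of D and 0.0933% of those of E. Mir6236, a microRNA gene on chr9:110281287-110281409, plus strand, stood at 0.561, 0.434, 0.277, 49.2, 21.8 and 0.363 (BCV 1.66).

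Lars2, the mitochondrial leucyl-tRNA synthetase on chr9:123366927-123462666, followed the same libraries. It stood at 7.71, 6.37, 4.46, 193.4, 83.1 and 6.69 scaled CPM (BCV 1.52). Gm15564, an antisense gene on chr16:35966752-35983230, stood at 1.87, 1.83, 2.05, 24.1, 12.7 and 2.46 (BCV 1.22). In all 4 genes library D exceeded library E, and E exceeded the other 4 libraries. Those 4 were not even for CT010467.1, running from 14.8 to 32.6.

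The annotation of these genes bears on how their counts are read. Gm42418, on the opposite strand, and AY036118, on the same strand, lie inside the span of CT010467.1. Their longest identical stretches with it were 1244 and 923 bases, and both genes had 0 counts in all 6 libraries. How counting treated reads that fall on more than 1 gene is not known. If they were set aside, CT010467.1 was counted on part of its span, and its shares of 0.195% in D and 0.0933% in E are too low. Lars2 and Gm15564 share a stretch of 72 bases at 98.6% identity, and no stretch of at least 50 bases was found between either of them and CT010467.1 or Mir6236. Of the 14 other genes with a symbol of a mitochondrial tRNA synthetase and a mean count of at least 100, a group formed after values were seen, 1 (Aars2) was highest in D and E, where the lower of both was 1.09 times the highest other library, against 10.8 times for Lars2. The share of all genes that were highest in D and E was not computed. The cytosolic leucyl enzyme Lars stood at 34.3 to 38.8 scaled CPM. The sources used here do not say that counting took account of strand, so a gene and its antisense partner cannot be told apart. Whether reads of rRNA origin reach Mir6236, Lars2 or Gm15564 was not tested.

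The mature miRNA that gives Mir6236 its name is printed because counts on this gene vary most, with its seed (bases 2 to 8) in capitals, from RefSeq (GRCm38.p6, chr9:110281353-110281371, plus strand). Libraries of long RNA do not measure the mature form.
mmu-miR-6236: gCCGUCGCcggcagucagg

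Gm23935 and Gm22513 were also highest in D and E, but by less. Gm23935 stood at 2662, 2586, 1771, 5552, 6489 and 3210 scaled CPM (BCV 0.504) and the small nuclear RNA Gm22513 at 195, 188, 156, 318, 429 and 250 (BCV 0.398). For both, E exceeded D. Gm26917, next to CT010467.1, went the other way, at 15805, 17615, 14974, 11322, 12064 and 12376. Gm22513 has 10 and Gm23935 has 3 other annotated genes of at least 98% identity over 90% of the length, so their counts are uncertain. Libraries D and E are also the most deeply sequenced, at 31056066 and 28027766 counts, and the part of depth was not tested.

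Muc5b, a gel-forming mucin on chr7:141839070-141873084, separated other libraries. It stood at 31.5, 140, 138, 32.9, 30.3 and 30.5 scaled CPM in A to F (BCV 0.826). Libraries B and C were nearly equal and 4.19 times or more above the other 4, which lay within 1.09 times of one another. No other gene of the 61 had this division between B and C on one side and all others at least 1.5-fold below.

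Nmnat3, an enzyme of NAD synthesis, stood apart in library F. It stood at 28.0, 27.9, 27.3, 31.8, 33.5 and 59.0 scaled CPM (BCV 0.351). Gm11691, a noncoding RNA, was also highest in F, at 7.45 against 2.56 to 4.61. The snRNA genes Gm24407 and Gm24265, which lie on chromosome 5 and share 141 bases at 98.6% identity, were highest in F at 98.3 and 157 and lowest in D at 34.0 and 60.03, as was Gm25099 at 20.3 and 8.35.

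Several genes of the histone clusters were highest in library B. Hist1h2bb stood at 6.07, 9.36, 7.07, 3.83, 3.69 and 4.03 scaled CPM (BCV 0.391), and Hist1h1c at 14.01, 19.5, 15.7, 8.74, 10.5 and 9.02 (BCV 0.324). Hist1h4j (BCV 0.320) was also highest in B at 17.1 and lowest in D at 7.99. Over the 19 histone cluster genes with a mean count of at least 100, a group formed after values were seen, 14 were highest in B, beside 17.0% of all genes. The others included Hist1h1t, the testis form of the linker histone H1, which was highest in D at 172 scaled CPM. Dmrt1, a factor of spermatogonia and Sertoli cells, stood at 11.4, 16.0, 10.5, 9.33, 7.23 and 7.01 (BCV 0.317), also highest in B.

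The other genes among the 20 were ENSMUSG00000096807 (no symbol, chr13:21722098-21722478, BCV 0.336), Gm4969 (BCV 0.402, highest in B), and Slc52a3, a riboflavin transporter (BCV 0.311), and Sgpl1, the sphingosine phosphate lyase (BCV 0.306), both highest in C. The last gene inside the 20 and the first outside, the tight junction gene Cldn11, had BCVs of 0.306 and 0.303.

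**Figure D5:**
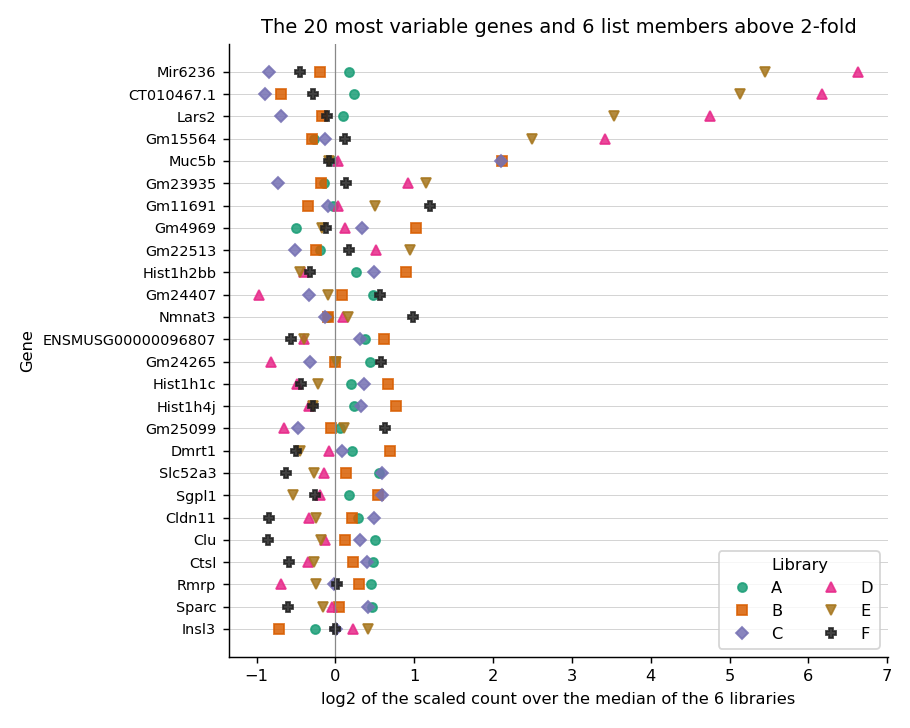
The 20 genes of highest BCV and 6 further list members above 2-fold (rows), as log2 of the scaled count over the median of the 6 libraries (horizontal axis, 1 symbol a library). Libraries D and E stand to the right in the first 4 rows, B and C in the row of Muc5b, and F to the left in Cldn11, Clu, Ctsl and Sparc.

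Sertoli genes were lowest in library F. The list summed to 182, 150, 174, 127, 127 and 92.5 scaled CPM in A to F. Of its 9 genes with a mean count of at least 100, 8 were lowest in F, beside 16.0% of all 12285 genes. Clu stood at 75.2, 58.0, 66.1, 48.4, 46.7 and 29.5, Ctsl, a lysosomal protease, at 28.3, 23.9, 26.8, 16.0, 16.9 and 13.6, and Cldn11 at 7.01, 6.66, 8.06, 4.58, 4.87 and 3.22. Libraries A, B and C exceeded D, E and F for all 3 genes. Sox9, at 1.65 to 2.88, and Wt1, at 3.14 to 5.47, were also lowest in F, on few counts. Sparc, a matrix protein that Sertoli cells also make, stood at 23.2, 17.3, 22.4, 16.4, 15.04 and 11.1.

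Spermatogonial genes summed to 88.9, 109, 95.9, 81.2, 75.9 and 75.8 scaled CPM, highest in B, and 5 of the 7 with enough counts were highest there, beside 17.0% of all genes. Leukocyte genes were highest in C and lowest in E (45.1 and 30.1). Leydig genes ran only from 45.2 to 51.8, and their one member above 2-fold, Insl3, was highest in E at 6.64 and lowest in B at 3.04.

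Chromatin condensation genes had the opposite order of libraries. They summed to 7518, 7841, 7374, 8614, 9584 and 9734 scaled CPM in A to F, so that D, E and F exceeded A, B and C. The sums of the spermatid marker, tail and regulator lists divided the libraries in the same way. The marker list is not separate evidence, because it shares Prm1 and Tnp1 with the condensation list. Prm1 alone made 77.7% of its TPM. The late spermatocyte list also divided the libraries in this way, at 2416, 2305, 2434, 2584, 2631 and 2482 scaled CPM. The sums of the acrosome and metabolic lists did not, with A (3923 and 10113 scaled CPM) above D (3769 and 9998). Prm1 stood at 1473, 1624, 1567, 1734, 1915 and 2129, Prm2 at 3123, 2833, 2713, 3463, 3877 and 3842, and Tnp2 at 1054, 1303, 1216, 1405, 1569 and 1576. Tnp1, at 368, 451, 399, 390, 468 and 528.3, did not divide the libraries in this way. Smcp of the mitochondrial capsule stood at 1040, 1033, 876, 1284, 1363 and 1266. No member of the spermatid lists with a mean count of at least 100 differed more than 2-fold. That is near the share of 0.497% over all 12285 genes, so it does not set these lists apart. Meiotic prophase genes summed to between 2333 (B) and 2416 (C), 1.04 times apart. Whether the protamine and Sertoli differences come from the makeup of the preparations was not tested, and diet, animal and preparation cannot be told apart here. Libraries D, E and F also have more total counts (25117760 to 31056066) than A, B and C (20138842 to 24724123). They carry the higher numbers in the column names too. The part of depth or of this order was not tested.

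The first principal component of the log2 values held 40.6% of the variance, with scores of -0.230, -0.564, -0.327, 0.505, 0.506 and 0.110 for A to F. Without the 6 genes of highest BCV it held 37.6%, with scores of -0.169, -0.624, -0.362, 0.345, 0.453 and 0.356. With and without these genes, A, B and C had negative and D, E and F positive scores, a division that the total counts follow too. The second component held 24.9%, with library F at -0.728 and library C at 0.478.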

How the data were processed

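Round spermatid RNA was sequenced by the authors on a HiSeq in 75 bp paired-ended reads. Trimming used BBDuk, mapping STAR (GRCm38) and counting featureCounts, all run inside Artificial Intelligence RNA-Seq; the authors deposited raw counts per gene, taken here without change. The 6 spermatid libraries form 1 group, and 6 cauda spermatozoa and 6 morula libraries were used for comparison; the 18 libraries of liver, eWAT and gastrocnemius muscle are not used here. The members and gene lists were chosen with earlier results of these data known.

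Symbols were found for 51633 of 51912 identifiers, and 51746 identifiers are shared with the sperm table. Of 282 list entries, 277 were matched, by symbol or RefSeq synonym. TPM was computed from the table's gene lengths. Differences between libraries use TMM scaling (edgeR 4.0.16 in R 4.3.3) with a prior count of 2 on the log2 scale and a mean count of at least 100. The common BCV came from edgeR with an intercept only, and DESeq2 1.42.0 was an alternative. Named were the 20 nuclear genes of highest mean TPM (at least 200 bases and 10 counts), the mtDNA genes, the 20 genes of highest and 10 of lowest BCV (ties by mean count) and list members; the mitochondrial synthetase, Lars, Gm26917 and histone cluster values were added after values were seen. Exact permutation tests compared library values; the methods give as many mice as spermatid samples, while for cauda spermatozoa and morulae p-values may measure technical spread. The BCV and permutation code was tested on simulated data. Copies were sought among GENCODE vM21 transcripts with BLAST 2.17.0, promoters and the miRNA come from RefSeq (GRCm38.p6), and plots were made in Python 3.11.15 (matplotlib 3.10.9). Depth was 20138842 to 31056066 counts a library, and intervals and limits cover counting error only.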

Additional observations from a re-analysis of the deposited data

Results flagged for a closer look

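In groups of 6, a library was picked out where its gap to the nearest other library exceeded 0.625 of the whole range, a rule that chance meets in about 1 of 20 groups. It was run on the 19 list sums, the mtDNA share and total counts, and on 77 single genes (20 abundant, 20 variable and 37 mtDNA genes).

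Library F stood apart in the summed level of the chromatin condensation genes, at 32507 TPM against 25118 to 27545 TPM in the others. On the scale of scaled CPM the same list stood at 9734 in F and 9584 in E, so that the gap is one of the TPM scale. Library F also stood apart for Nmnat3, at 59.0 scaled CPM against 27.3 to 33.5.

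2 mt-tRNA genes met the rule on a handful of counts: mt-Tq stood at 0.119 scaled CPM in library C and mt-Tr at 0.140 in library A, both near the limit that 3 counts set. None of the 20 most abundant nuclear genes met it.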

How the results depend on the processing

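No paired analysis was possible because the column names carry no replicate numbers of the labels. The mtDNA share was 0.352% without mt-Rnr1 and mt-Rnr2, and 2.09% to 2.18% with 1 library left out. Its differences from cauda spermatozoa and morulae kept direction and p under each alternative run.

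Against cauda spermatozoa, with nuclear counts only as the denominator, tail and sheath turned to -0.65 on the log2 scale, and meiotic prophase (0.63), spermatogonia (0.19), Leydig (0.52) and structural noncoding RNA (0.26) no longer passed, while Sertoli (-2.80) and immediate early genes (-1.94) came to pass. With summed TPM, Sertoli (0.37), myoid and stroma (0.64) and immediate early genes (0.64) reversed. The causes were not tested.

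The count of genes above 2-fold was 2445 with a mean count of at least 10 and 12252 with no filter, where counting error is larger. It was 36 to 54 with 1 library left out (36 without F, 39 without B) and, chosen after seeing the data, 41 without D and E. Of the 20 most variable genes, 5 remained with a minimum of 10, 13 to 19 with 1 library left out (13 without F), and 8 without D and E, Muc5b then ranking first. Of the 20 most abundant genes, 8 remained by CPM, which favour long genes. The common BCV stayed between 0.0722 and 0.0835 in all settings run. Means of the 19 list sums moved by over 1 SD for 16 lists when genes under 200 bases were left out of the TPM sum, and for 0 with any library left out.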
